A study of Homo sapiens with 15 samples.

Results

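L1236 is a cell line established from classical Hodgkin lymphoma, and its expression profile is described here against the other Hodgkin lines measured with it. The 2 L1236 arrays were chosen by their titles and are 2 of 15 arrays in the series. They were set against 8 arrays of the Hodgkin lines L428, KM-H2 and HDLM2 (2 arrays each), L540 and L540Cy (1 array each). Since L540Cy is known as a subline of L540, the arrays of L540 and L540Cy were averaged, which left 4 other lines of origin. Expression was measured on Affymetrix U133 Plus 2.0 oligonucleotide arrays from total RNA, and the values are the authors' log2 signals from RMA, a method that corrects the background, normalizes arrays to one another and summarises the probes of each probe set. The duplicate arrays are biological duplicates per the series' design text. All 6 of these lines carry the label classical Hodgkin Lymphoma, and the labels name no treatment, time or genetic change for any line. The remaining 5 arrays are of Namalwa (2 arrays, Burkitt lymphoma), Reh (2 arrays, B cell acute lymphoblastic leukaemia) and SU-DHL-4 (1 array, B cell non-Hodgkin lymphoma). They are given as a reference level for B cell genes. Each line stands for 1 tumour grown in culture, so a difference between L1236 and the other lines is a difference between lines and not between conditions.

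The malignant cells of classical Hodgkin lymphoma, named after Hodgkin, Reed and Sternberg, mostly descend from germinal centre B cells and are known for having lost much of the B cell programme, including the B cell receptor and the octamer cofactor BOB.1 (gene POU2AF1). They are also known for constitutive NF-kB and JAK-STAT signalling, for secreting cytokines and chemokines that recruit other leukocytes, and, in part of the cases, for reduced MHC molecules on their surface. L1236 is known as a line of B cell origin, as are L428 and KM-H2, whereas a T cell origin is known for HDLM2 and for L540.

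Over all genes the duplicate arrays of the 4 duplicated Hodgkin lines differed by an SD of 0.24 to 0.36 log2 (0.29 for L1236), against 0.52 for Namalwa and 0.62 for Reh. The 2 arrays labelled Reh were unlike each other, for instance in MS4A1 (CD20), at 11.47 in replicate 1 and 4.12 in replicate 2. The non-Hodgkin arrays entered the test through the estimate of the spread alone. The L1236 arrays showed the Hodgkin markers TNFRSF8 (CD30, 10.39 and 10.58), FUT4 (CD15, 9.40 and 9.69), FSCN1 (10.58 and 10.95), BATF3 (13.84 and 13.69) and CCL17 (12.79 and 13.66), while TRAF1, the 6th of these markers, was at 5.11 and 5.43. The medians of the 15 arrays over all probe sets lay between 5.501 and 5.568, so values of 3 to 5 are near the bottom of the scale.

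A gene is called higher or lower in L1236 when its difference from the mean of the 4 other lines passed an adjusted p of 0.05 (limma, spread between duplicate arrays, Benjamini-Hochberg over 19740 genes). By this rule 2561 genes were higher (13% of those tested) and 2002 were lower (10.1%). A gene is above each, or below each, when it also differed in 1 direction, past the same threshold, from L428, KM-H2, HDLM2 and L540 with L540Cy taken singly. This held for 571 genes above each (2.89%) and 224 below each (1.13%). Among the genes above each, 242 exceeded the mean of the others by at least 2 log2 and 75 by at least 4 log2. Among the genes below each, 81 were lower by at least 2 log2 and 24 by at least 4 log2. The test compares L1236 with the spread between repeat arrays of a line, so a gene that varies from line to line passes it easily. When each line counted once and the spread between the 4 other lines was used instead, 89 genes were higher (0.451%) and 10 lower (0.0507%). All 99 were among the genes above each or below each. Without L1236 replicate 1 the counts higher and lower were 1555 and 1037, and without L1236 replicate 2 they were 1407 and 1048.

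The genes furthest above the other Hodgkin lines included surface receptors, secreted factors and octamer-binding factors. FCER1A, the alpha chain of the high-affinity IgE receptor that mast cells and basophils carry, was at 13.19 and 13.57 in the 2 L1236 arrays and at 3.58 to 3.84 (median 3.73) in the 8 other Hodgkin arrays, a difference of +9.67 ± 0.13, adjusted p = 1.92e-10. The other FCER1A probe set did not show this, and the mean over both probe sets differed by 5.29 (adjusted p = 4.57e-08). BANCR, a long noncoding RNA known from melanoma cells, was at 13.15 and 12.94 against 4.63 to 5.33 (median 4.88) (+8.12 ± 0.16, adjusted p = 1.15e-09). IL3, a growth factor of early haematopoietic, mast and basophil cells, was at 11.69 and 12.23 against 3.99 to 4.51 (median 4.22) (+7.77 ± 0.18, adjusted p = 2.73e-09). The L1236 arrays stood far above all 8 others for these 3 genes, with no overlap, and the 5 non-Hodgkin arrays were as low as the other Hodgkin lines (FCER1A 3.35 to 3.73, BANCR 4.72 to 5.22, IL3 3.98 to 4.45). POU2AF1, the octamer coactivator of B cells, was at 11.61 and 10.86 in L1236 and at 3.84 to 4.57 (median 4.21) in the other Hodgkin arrays (+7.03 ± 0.25, adjusted p = 4.30e-08). In the non-Hodgkin B cell lines it was higher still, at 12.69 to 13.29, so that the L1236 arrays lay between the 2 groups and overlapped neither.

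The other 11 of the 15 largest rises were NDST4 (+7.22), BEX3 (+7.01), ANKRD55 (+6.98), CEP15 (+6.88), ISLR (+6.83), POU2AF3 (+6.80), SLC16A4 (+6.72), CCL2 (+6.502), SULF1 (+6.28), PDGFC (+6.10) and POU2F3 (+5.97). Over the mean of their probe sets the differences of NDST4 and CEP15 were 3.73 and 3.53, with 1 of 2 probe sets higher by over 1 log2 in each, and that of POU2AF1 was 4.04, with both higher. NDST4 and SULF1 are enzymes that modify heparan sulfate, SLC16A4 is a monocarboxylate transporter, PDGFC a growth factor for mesenchymal cells, and CCL2 the chemokine that attracts monocytes. For most of these genes the other 4 lines all lay near the bottom of the scale, as for PDGFC (9.55 and 9.74 against 3.42 to 3.66) and CCL2 (10.14 and 10.57 against 3.61 to 4.28). NDST4 and SULF1 were exceptions in which 1 other line was also raised. NDST4 was at 11.09 and 11.02 in L428 against 13.48 and 13.88 in L1236. SULF1 was at 8.49 and 8.02 in KM-H2 against 12.02 and 12.002. CEP15 was likewise raised in KM-H2 (9.73 and 10.30). These 3 genes are no longer called when the spread between the 4 other lines is used (adjusted p = 0.999 for NDST4, 0.595 for SULF1 and 0.999 for CEP15).

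**Figure D1:**
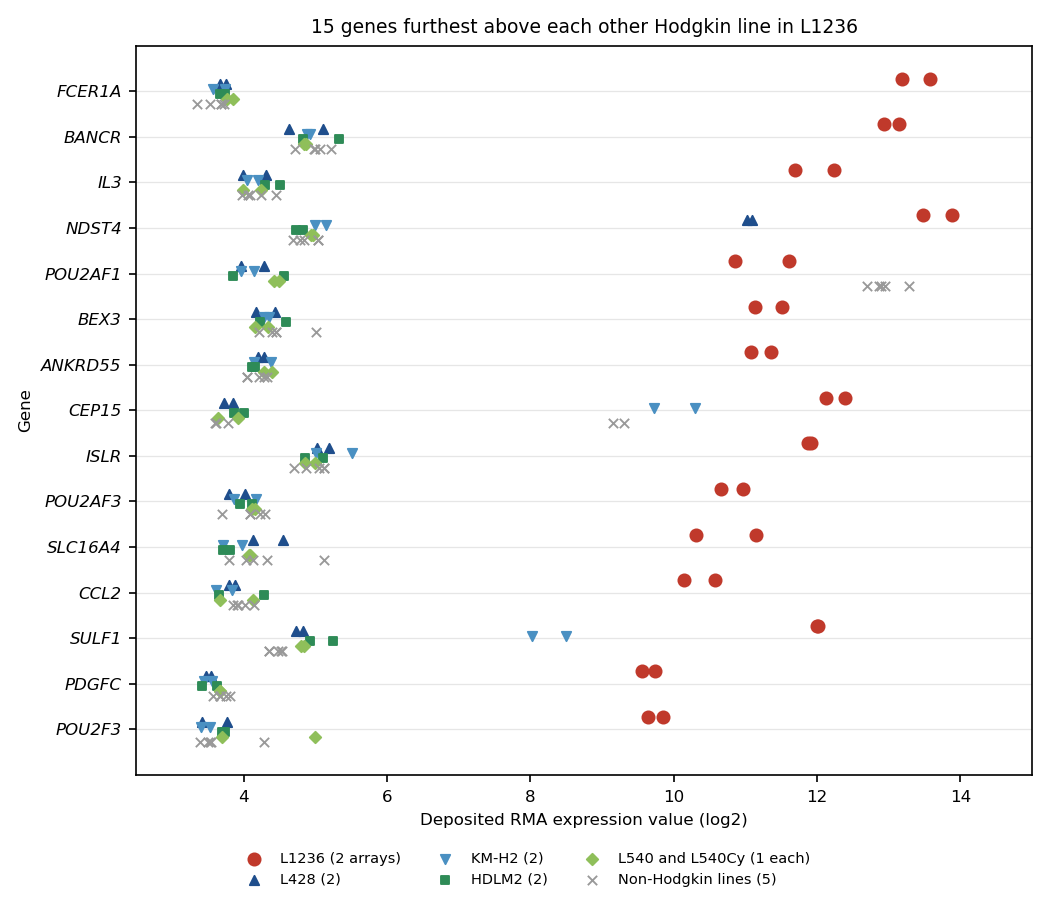
Deposited log2 RMA values (x axis) of the 15 genes furthest above each other Hodgkin line (y axis), with 1 point per array and a colour and marker per line. The 2 L1236 arrays lie to the right of all 8 other Hodgkin arrays for every gene shown, and for POU2AF1 the 5 non-Hodgkin arrays lie further right still.

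The genes furthest below the other lines were mostly genes that all the other lines expressed at a high level. GSTO1, a glutathione transferase of the omega class, was at 4.70 and 4.71 in L1236 and at 11.76 to 12.52 (median 12.06) in the other Hodgkin arrays (-7.39 ± 0.13, adjusted p = 8.88e-10). Both of its probe sets were lower, and the non-Hodgkin arrays held 10.26 to 12.17. MCUB, an inhibitory subunit of the mitochondrial calcium uniporter, was at 3.30 and 3.13 against 9.72 to 11.37 (median 10.27) (-7.15 ± 0.27, adjusted p = 6.45e-08). EDF1, a transcriptional coactivator that also binds stalled ribosomes, was at 4.33 and 4.89 against 10.65 to 11.45 (median 11.05) (-6.44 ± 0.16, adjusted p = 3.16e-09). PHPT1, a protein histidine phosphatase, was at 4.98 and 4.17 against 9.85 to 11.12 (median 10.55). For these 4 genes L1236 was also below all 5 non-Hodgkin arrays, whose lowest value was 10.26 for GSTO1, 9.86 for MCUB, 10.95 for EDF1 and 10.10 for PHPT1. TSPYL1, a protein of the nucleosome assembly family, was at 3.28 and 3.14 against 9.86 to 11.13 (median 10.13). Its other 2 probe sets did not fall by 1 log2, and the mean over its probe sets differed by -2.62 (adjusted p = 4.09e-07).

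The remaining largest falls were S100A11 (-7.16), FAM107B (-6.77), BAG2 (-6.11), CD59 (-6.05), DDHD1 (-5.97), RNF149 (-5.64), TRAF1 (-5.13), MSN (-4.94), ENPP2 (-4.90) and BCL6 (-4.61). CD59, a surface protein that blocks the membrane attack complex of complement, was at 4.91 and 4.34 against 9.21 to 12.46 (median 10.67), and 4 of its 5 probe sets were lower by over 1 log2. MSN, moesin, which links the cell membrane to actin, was at 6.79 and 7.36 against 11.57 to 12.43 (median 12.02), lower in 1 of 2 probe sets. The mean over all probe sets was smaller than the value given by over 1.5 times for CD59 (-4.03), DDHD1 (-3.22), PHPT1 (-3.86), MSN (-2.53), BAG2 (-2.58) and BCL6 (-2.37), as for TSPYL1. Of all 157 called genes named here with several probe sets, 75 were smaller by that much and 3 were no longer called. BAG2 is a cochaperone of HSP70, and its values were 4.19 and 4.30 in L1236 against 8.96 to 11.74 (median 10.22). ENPP2, which makes lysophosphatidic acid, was at 4.80 and 4.91 against 8.09 to 12.16 (median 9.80) and was as low in the non-Hodgkin arrays (3.59 to 4.49). S100A11, a calcium-binding protein, was at 4.24 and 4.37 against 10.45 to 12.56 (median 11.50), and among the non-Hodgkin lines it was high in Namalwa (9.44 and 9.21) and low in Reh and SU-DHL-4.

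**Figure D2:**
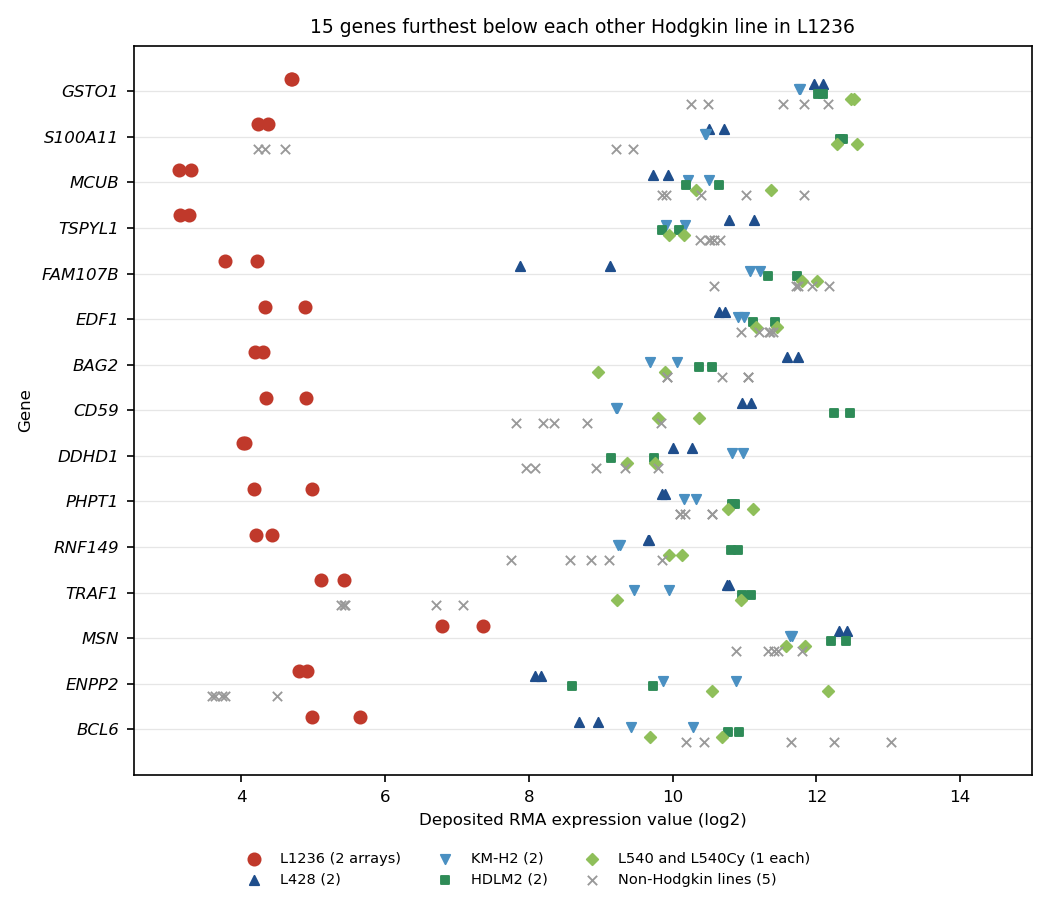
Deposited log2 RMA values (x axis) of the 15 genes furthest below each other Hodgkin line (y axis), with 1 point per array and a colour and marker per line. The 2 L1236 arrays lie to the left of all 8 other Hodgkin arrays for every gene shown, and for GSTO1, MCUB, TSPYL1, EDF1 and PHPT1, among others, also to the left of the 5 non-Hodgkin arrays.

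Beyond single genes, 60 lists of pathways, gene families and cell type markers were counted. They hold 1970 measured genes, and their counts are read against the shares over all genes given above. MHC class II stood furthest from those shares, with 14 of 18 members lower and 9 (5 and 5) below each. By their counts the cell division, B cell transcription factor, haematopoietic adaptor, secretory and homeobox lists leaned to the higher side, and the T cell list held no higher member. The median differences of the homeobox list (-0.025) and the adaptor list (0.006) were near that of all genes (-0.035). That of the secretory list was 0.23, and 0.08 without L1236 replicate 2. With the spread between the 4 other lines as the error, no member of the cell division, adaptor or secretory lists was called. Under that error POU2AF1 alone was called in the B cell transcription factor list, and 3 of 54 members in the homeobox list. Many other lists held called members in both directions at shares near those of all genes. Where leaving out an L1236 array moved a list's count by over 1.5 times, the counts without L1236 replicate 1 and without L1236 replicate 2 follow in parentheses, in that order. The counts of all genes higher and lower also fell by over 1.5 times without either array, as given above. A drop of that size is thus not particular to a list. With the replicate number as a block over the 12 numbered arrays, 419 genes instead of 224 were below each other line (363 over the same arrays without the block), and the other 3 counts over all genes moved by less than 1.5 times.

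**Figure D3:**
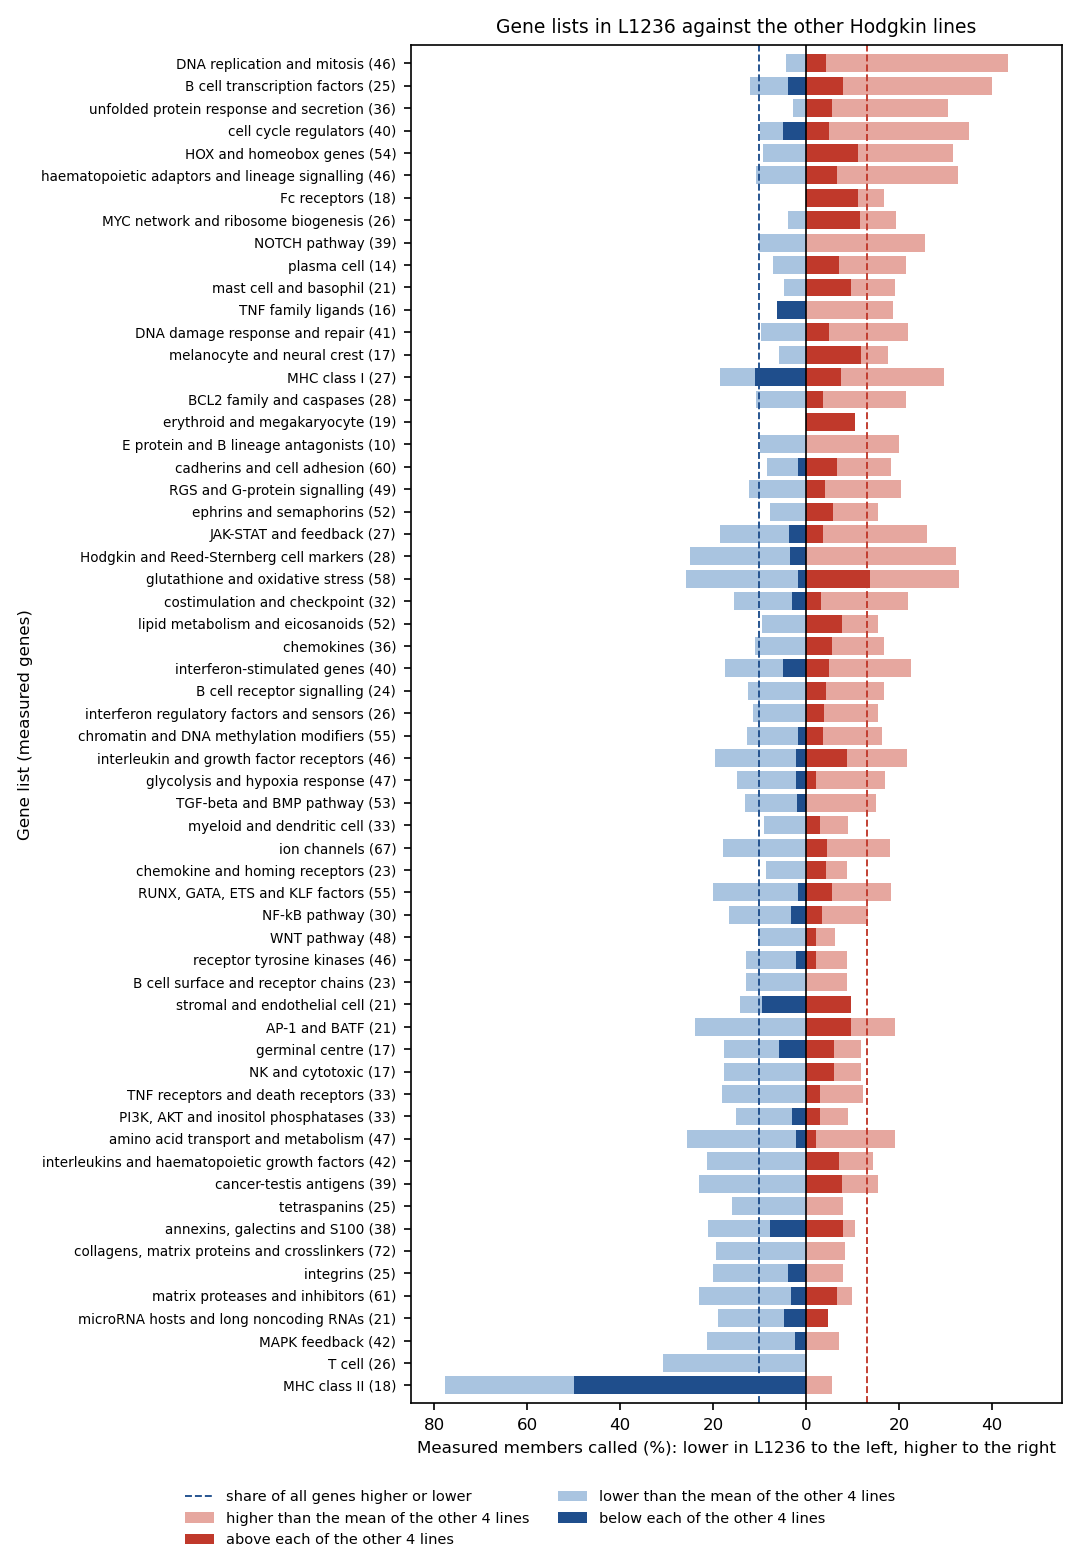
Share of the measured members of each of 60 gene lists (x axis, percent) that were higher in L1236 (right, pale red) or lower (left, pale blue), with the share above each or below each other Hodgkin line drawn over it in the dark colour. Dashed lines mark the shares of all 19740 genes called higher (13%) and lower (10.1%), and the 18 measured MHC class II genes reach furthest left.

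In the B cell programme L1236 carried some transcription factors at a high level without the receptor chains. Of the B cell transcription factor list, 10 of 25 measured members were higher and 3 lower, with a median difference of 0.20 against -0.04 over all genes. The median did not hold under other settings. Over the mean of all probe sets it was 0.0, with 8 members higher and 4 lower. Over the 12 numbered arrays it was -0.014, with 9 higher and 3 lower, with the replicate block or without it. PAX5, the B lineage commitment factor, was at 10.99 and 10.63 in L1236 and at 5.32 to 7.38 (median 6.22) in the other Hodgkin arrays (+4.48 ± 0.28, adjusted p = 2.68e-06), 1 of its 2 probe sets being higher. Both L1236 values were above all 8, and the non-Hodgkin range was 10.78 to 12.10. SOX4, a factor of early B cell development, differed by +4.19 ± 0.69, adjusted p = 0.00163, but L428 and HDLM2 also expressed it, at 9.97 and 10.15 in HDLM2 against 11.13 and 10.85 in L1236. BCL11A, a B lymphoid zinc finger factor, differed by +2.88 ± 0.18, adjusted p = 3.05e-06. At 10.23 and 10.46 in BCL11A, the L1236 arrays lay between those of L428 (9.49 and 9.71) and KM-H2 (11.09 and 11.07), and HDLM2, L540 and L540Cy were at 5.05 or less.

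Other factors of the same list were lower. SPIB, an ETS factor of B cells, was at 5.34 and 5.40 in L1236, as in L540 and L540Cy (5.04 and 5.90), while L428, KM-H2 and HDLM2 held 9.51 to 10.59 (-3.49 ± 0.61, adjusted p = 0.00224). EBF1, an early B cell factor, was at 5.45 and 5.13, with 4.83 and 5.37 in L540 and L540Cy and 7.47 to 8.98 in the other 3 lines (-2.26 ± 0.15, adjusted p = 4.01e-06). FOXO1, which PI3K signalling restrains, was below each other line, at 6.77 and 6.09 against 7.24 to 9.05 (median 8.10) (-1.66 ± 0.20, adjusted p = 2.49e-04). The surface and receptor chain list had 2 (2 and 1) of 23 members higher, CD40 (+1.77) and FCER2 (+1.01), and 3 lower, CD53 (-2.36), CR2 (-2.02) and CD24 (-1.96). Against HDLM2 and L540 with L540Cy alone the differences were -0.04 for FCER2 and 0.07 for CR2, so no direction holds across the lines for these. The B cell receptor chains were not called. CD79A was at 5.94 and 5.95 against 5.67 to 6.33 in the other Hodgkin arrays and 11.92 to 12.72 in the non-Hodgkin arrays, and CD79B at 5.49 and 5.67 against 5.34 to 5.86 and 11.14 to 11.82, so L1236 was among the low Hodgkin arrays in both. Among 5 measured markers fixed for B cells, L1236 was under 6 log2 in MS4A1, CD79A, CD79B and EBF1 and over it in PAX5.

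Beside POU2AF1, a pair of related factors was among the largest rises. Its family relative POU2AF3 was at 10.66 and 10.97 against 3.79 to 4.16 (median 4.06) (+6.80 ± 0.13, adjusted p = 1.06e-09), and POU2F3, the octamer-binding factor of tuft cells with which POU2AF3 is known to act, at 9.85 and 9.64 against 3.40 to 4.999 (median 3.69) (+5.97 ± 0.19, adjusted p = 2.05e-08). Both were low in the non-Hodgkin arrays (3.70 to 4.29 for POU2AF3 and 3.39 to 4.28 for POU2F3), where POU2AF1 was high. POU2F2, the octamer factor of B cells, was at 6.62 and 6.58 against 6.26 to 7.57 and was not called (-0.23 ± 0.37, adjusted p = 0.781).

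**Figure D4:**
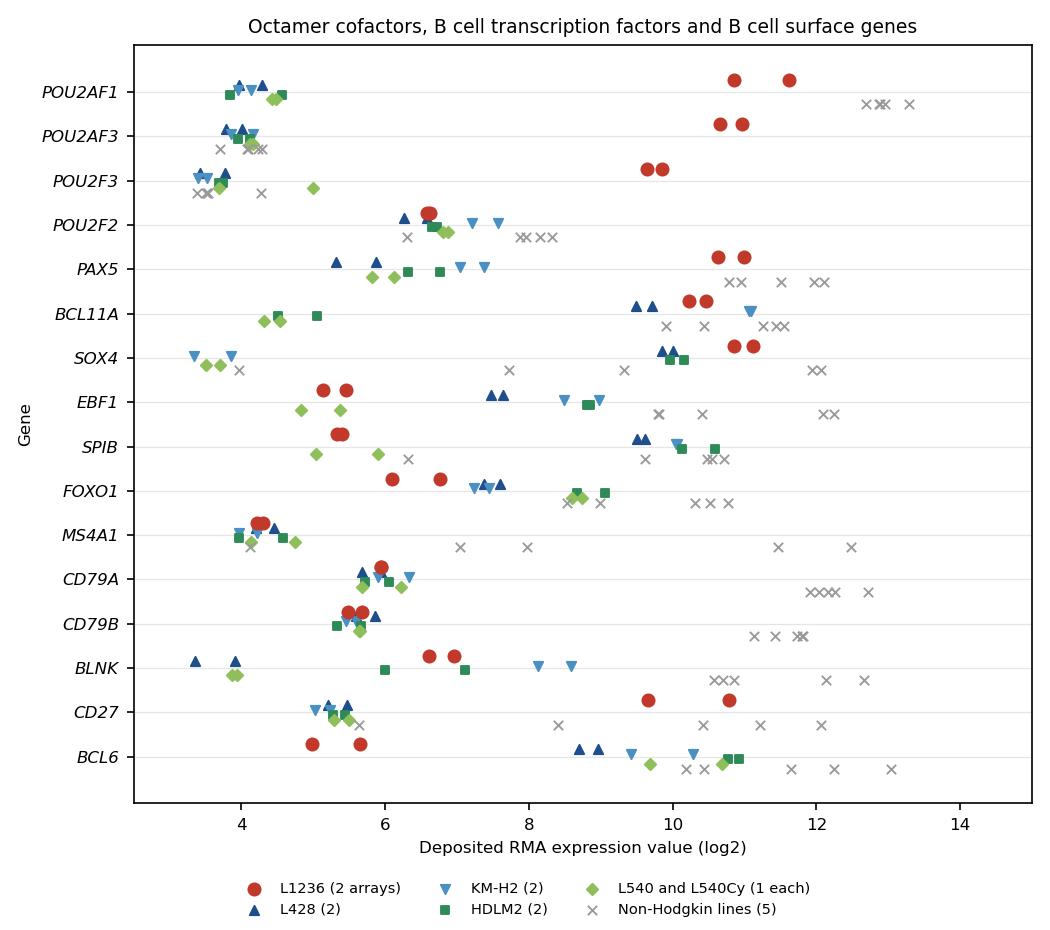
Deposited log2 RMA values (x axis) of octamer factors, B cell transcription factors and B cell surface genes (y axis), with 1 point per array and a colour and marker per line. L1236 (10.99 and 10.63) lies near the non-Hodgkin arrays in PAX5 and among the other Hodgkin arrays in CD79A and CD79B.

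Germinal centre and plasma cell genes were mixed. Of 17 germinal centre genes 11.8% were higher and 17.6% lower, and of 14 plasma cell genes 21.4% and 7.14%. Over all genes the shares were 13% and 10.1%. The higher members were RGS13, GCSAM, CD27, MZB1 and SDC1, and the lower ones BCL6, EZH2, GNA13 and CAV1. Fewer members of both lists were higher without either L1236 array. BCL6, the transcriptional repressor of the germinal centre, was at 5.66 and 4.98 in L1236 against 8.70 to 10.92 (median 9.98) in the other Hodgkin arrays (-4.61 ± 0.48, adjusted p = 8.49e-05) and 10.18 to 13.04 in the non-Hodgkin arrays, below every other array of the series. GCSAM, a germinal centre signalling adaptor, was at 8.19 and 8.40 against 4.33 to 7.17 (median 6.09) (+2.46 ± 0.20, adjusted p = 1.77e-05). CD27, a TNF receptor of memory B and plasma cells, was at 9.65 and 10.79 against 5.03 to 5.497 (median 5.29) (+4.92 ± 1.09, adjusted p = 0.00872), and the 2 Reh arrays, which enter its error, differed (11.22 and 5.64). MZB1, a chaperone of immunoglobulin assembly, rose by 3.20 log2, and MALT1, a protease of B cell receptor signalling, was above each line by a mean of +1.64.

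MHC class II genes were lower in L1236 as a family. These genes encode the alpha and beta chains that present peptides to CD4 T cells, the invariant chain, the peptide loaders and the transactivator CIITA. 1 (0 and 0) of 18 measured list members were higher and 14 lower, with a median difference of -1.70, and 9 (5 and 5) were below each other line: HLA-DRA, HLA-DRB1, HLA-DPA1, HLA-DPB1, HLA-DMA, HLA-DOA, CD74, CIITA and HLA-DQA1, whose probe sets disagree in direction. Against L428 and KM-H2 alone, the B cell derived lines, 13 members were lower, and against HDLM2 and L540 with L540Cy, 14. Both L1236 arrays lay below all 8 other Hodgkin arrays in 11 of the 18 genes. With the spread between the 4 other lines as the error (limma, 1 value a line) no member of the list was called, and 4 were lower at an unadjusted p under 0.05.

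The promoters of 5 of these 9 genes are shown because they hold the letters of the CCAAT element, which class II promoters are known to carry in inverted form as the Y box (ATTGG on the gene's strand). Each stretch is the 150 bases before the RefSeq transcription start (GRCh38.p14), written 5′ to 3′ on the gene's strand, with ATTGG or its reverse complement CCAAT in capitals.
HLA-DRB1, chr6:32589849-32589998, minus strand: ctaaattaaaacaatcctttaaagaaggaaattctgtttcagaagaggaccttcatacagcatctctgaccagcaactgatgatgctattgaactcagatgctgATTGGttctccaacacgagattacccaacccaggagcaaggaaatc
HLA-DPB1, chr6:33075840-33075989, plus strand: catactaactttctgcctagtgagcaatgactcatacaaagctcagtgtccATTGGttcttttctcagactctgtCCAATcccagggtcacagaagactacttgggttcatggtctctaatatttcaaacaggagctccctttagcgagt
HLA-DMA, chr6:32953098-32953247, minus strand: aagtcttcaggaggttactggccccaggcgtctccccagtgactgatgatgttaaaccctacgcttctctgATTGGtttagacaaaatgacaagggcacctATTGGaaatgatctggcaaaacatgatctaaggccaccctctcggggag
HLA-DOA, chr6:33009592-33009741, minus strand: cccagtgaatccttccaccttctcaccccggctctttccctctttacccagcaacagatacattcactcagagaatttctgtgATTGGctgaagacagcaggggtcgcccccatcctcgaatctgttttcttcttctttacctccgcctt
CD74, chr5:150412911-150413060, minus strand: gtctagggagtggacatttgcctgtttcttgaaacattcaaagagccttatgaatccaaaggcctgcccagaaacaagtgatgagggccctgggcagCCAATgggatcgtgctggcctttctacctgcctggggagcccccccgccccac
Of the 9 genes, 7 had an entry in the promoter table, and HLA-DRA and CIITA had none. A gene counted when any of its windows held ATTGG or CCAAT on either strand, which 6 of the 7 did. Over the whole MHC class II list 11 of 14 genes with an entry did (78.6%), so the letters are not particular to the genes below each. Of all 35116 promoters of the same length, counted singly, 23.5% held them. In the 5 windows shown, the match nearest the start lay 46 to 75 bases before it. The inverted form was present in 4 of the 5, HLA-DPB1 held both forms, and CD74 held the forward form CCAAT alone. HLA-DPA1 held neither in its 2 windows. The octamer ATTTGCAT, or ATGCAAAT on the other strand, was in no window of the 7 genes and in 0.988% of all promoters. At so low a share most sets of 7 genes would hold none, so its absence tells nothing about these genes. The promoters of HLA-DRA and CIITA were not examined. The letters describe the reference sequence, and no binding was measured.

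Within the family the size of the fall differed. HLA-DRA was at 10.90 and 10.69 in L1236 against 11.91 to 13.98 (median 13.28) (-2.35 ± 0.20, adjusted p = 2.25e-05), and HLA-DPB1 at 9.95 and 9.97 against 10.93 to 13.19 (median 12.33) (-2.32 ± 0.21, adjusted p = 3.16e-05). HLA-DRB1 was at 11.46 and 11.33 against 12.61 to 14.04 (median 13.53) and CD74, the invariant chain, at 12.47 and 12.89 against 13.32 to 14.79 (median 13.74), so these genes were lower but far above the bottom of the scale. HLA-DOA, a modulator of peptide loading, was near the bottom, at 4.82 and 4.74 against 6.10 to 9.16 (median 8.71) (-3.48 ± 0.15, adjusted p = 2.15e-07). CIITA, the transactivator of the family, was at 6.57 and 6.54 against 7.14 to 8.73 (median 7.78) (-1.38 ± 0.16, adjusted p = 1.55e-04), and the L1236 arrays lay below all 8 others. CTSS, the protease that trims the invariant chain, fell by 2.04 log2 with overlap of the groups. Of the RFX factors that bind class II promoters, RFX5 was lower (-0.53), RFXANK was the 1 higher member of the list (+0.44), and RFXAP was not called (-0.49 ± 0.42, adjusted p = 0.542). For HLA-DQA1 the probe sets disagreed. The one with the highest mean was at 5.77 and 5.37 against 6.26 to 12.93 (median 10.92) (-4.43 ± 0.18, adjusted p = 1.08e-07), 2 others were higher by over 1 log2, and the mean over all 3 differed by 0.12 (adjusted p = 0.945), so no direction holds for this gene. HLA-DRB1 and HLA-DRB4 are near-identical and polymorphic, and their probe sets may not tell them apart.

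**Figure D5:**
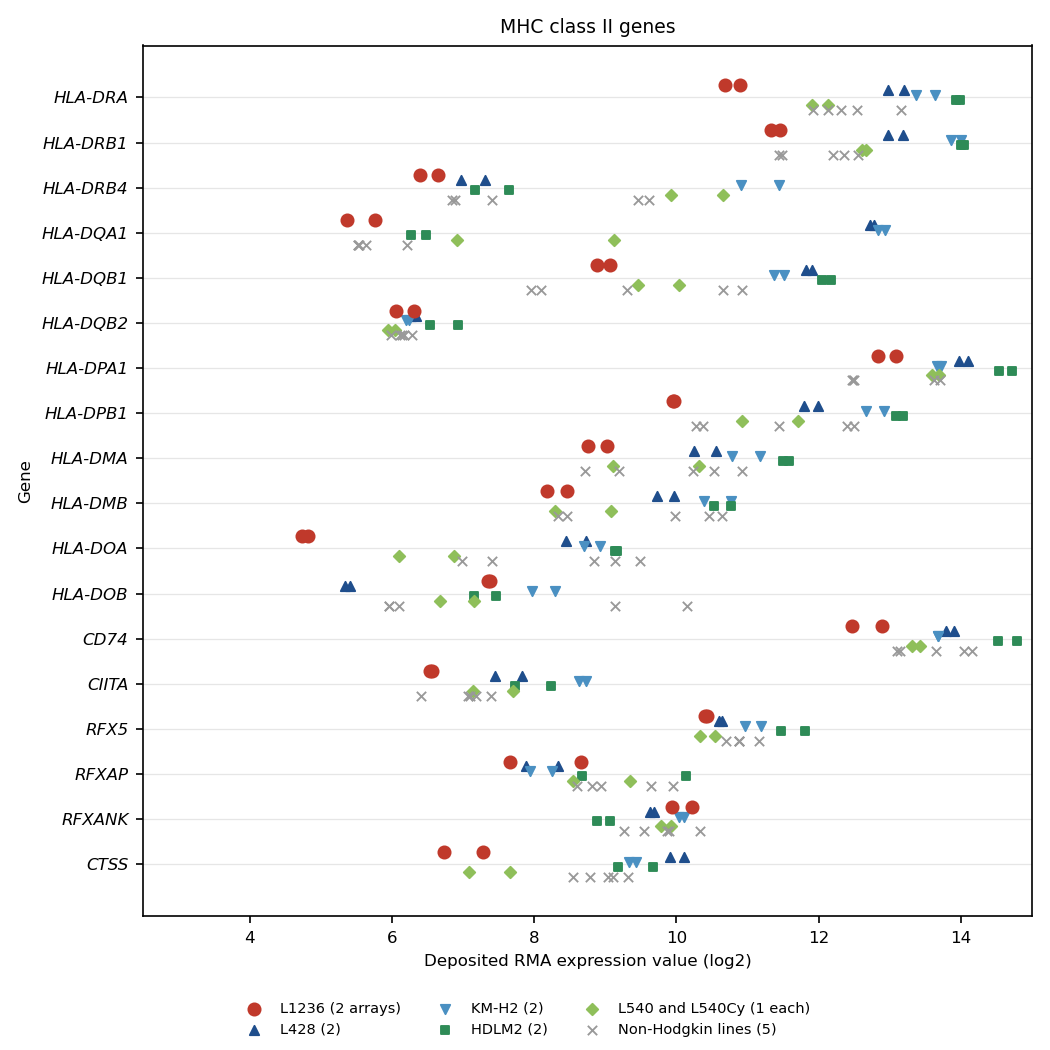
Deposited log2 RMA values (x axis) of the 18 measured MHC class II genes (y axis), with 1 point per array and a colour and marker per line. The L1236 arrays are left of all 8 other Hodgkin arrays in 11 genes, among them HLA-DRA, CD74 and CIITA.

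The MHC class I list was called in both directions. 8 (5 and 3) of 27 measured list members were higher and 5 lower. HLA-B was at 12.18 and 12.58 against 13.27 to 14.03 (median 13.86) (-1.37 ± 0.15, adjusted p = 1.44e-04), and HLA-C (-1.01) and HLA-F (-1.36) were below each other line as well. The immunoproteasome subunits PSMB8 and PSMB9 were above each. PSMB8 was at 12.38 and 12.56 against 10.52 to 11.92 (median 11.25) (+1.31 ± 0.25, adjusted p = 0.00338) and PSMB9 at 12.38 and 12.09 against 10.28 to 12.22 (median 11.12), where the highest other value was that of L540. ERAP2, a peptide trimming protease, was higher by 3.17. B2M, the shared light chain, was at 14.05 and 14.10 against 13.27 to 14.28 and was not called (+0.07 ± 0.12, adjusted p = 0.81). HLA heavy chain sequences are similar to one another, so signal may be shared between their probe sets.

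Among secreted factors, some were near the bottom of the scale in all the other Hodgkin lines and others were shared with some of them. Of the interleukin and haematopoietic growth factor list 6 of 42 members were higher and 9 (5 and 8) lower, and IL3, KITLG and TSLP were above each. KITLG, stem cell factor, the ligand of KIT on mast cells and progenitors, was at 9.84 and 8.97 against 3.27 to 3.96 (median 3.61) (+5.81 ± 0.23, adjusted p = 1.07e-07), in 2 of 4 probe sets. TSLP, an epithelial cytokine of type 2 immunity, was at 4.48 and 5.82 against 3.29 to 3.53 (median 3.46) (+1.71 ± 0.26, adjusted p = 0.00105), and its 2 L1236 arrays differed by more than 1 log2. IL4 rose by 1.78 log2 with overlap of the groups. IL26 (-3.56), IL15 (-1.73), LIF (-1.60) and IL21 (-1.56) were the largest falls. IL26 was high in HDLM2, L540 and L540Cy (9.36 to 11.69), and L1236 (3.40 and 3.59) was as low as L428 and KM-H2.

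Of the chemokines 6 of 36 members were higher and 4 lower. CCL2 and PPBP, the platelet basic protein, were above each, PPBP at a low level (4.74 and 4.60 against 3.45 to 3.79). CXCL10, an interferon-induced T cell attractant, was at 11.71 and 12.31 in L1236, but KM-H2 held it as high (11.84 and 12.52), and the other lines were at 7.73 or less (+4.59 ± 0.33, adjusted p = 7.22e-06). CX3CL1, fractalkine, was the largest fall of the list, at 5.54 and 5.83 against 5.95 to 9.43 (median 8.60) (-2.45 ± 0.23, adjusted p = 4.17e-05). TNFSF13B (BAFF), a B cell survival factor, was below each other line, at 4.68 and 4.91 against 7.09 to 10.38 (median 8.51) (-3.85 ± 0.13, adjusted p = 4.28e-08).

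Receptors for cytokines were called in both directions. Of the receptor list 10 of 46 members were higher and 9 (4 and 4) lower. IL13RA2, the decoy receptor for IL-13, was at 7.70 and 8.85 against 3.74 to 4.07 (median 3.87) (+4.39 ± 0.25, adjusted p = 1.23e-06), IL20RB at 8.37 and 8.45 against 4.58 to 5.13 (median 4.81) (+3.57 ± 0.12, adjusted p = 4.22e-08), and IL1RL1, the IL-33 receptor of mast cells and type 2 lymphocytes, was above each by a mean of +2.08. No other Hodgkin array exceeded 4.07 for IL13RA2 or 5.13 for IL20RB. IL1R1 was at 10.62 and 10.69 in L1236 and at 10.45 in L540Cy (+3.46 ± 0.21, adjusted p = 1.97e-06), and CSF2RB, the beta chain shared by the IL-3, IL-5 and GM-CSF receptors, was at 9.78 and 10.43, as in KM-H2 (10.21 and 9.67). IL3RA, the IL-3 specific chain, was at 7.76 and 7.86 against 6.42 to 10.66 and was not called. IFNGR1 was below each line (-1.38 ± 0.21, adjusted p = 8.86e-04), and IL6R (-2.06), IL2RB (-1.91) and IL2RA (-1.41) were lower. Against L428 and KM-H2 alone IL6R and IL2RA were not lower (0.15 and 1.01, neither called).

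Genes of mast cells and basophils were present in part. Of 21 measured list members, 4 were higher: FCER1A (+9.67), CMA1 (+4.75), IL5RA (+2.56) and ENPP3 (+1.94). MITF was lower (-0.60), but against HDLM2 and L540 with L540Cy alone it was higher (0.61, adjusted p = 0.0459 from limma), and without L1236 replicate 1 it was not called (-0.30, adjusted p = 0.471). CMA1, the mast cell chymase, was at 8.83 and 8.88 against 3.70 to 4.41 (median 4.11) (+4.75 ± 0.15, adjusted p = 2.46e-08), clear of all 8 other arrays and of the non-Hodgkin range (3.99 to 4.59). IL5RA was at 8.88 and 9.07 in L1236 and higher in L428 (9.91 and 10.12). Of 5 defining markers measured, FCER1A was high and CPA3 (3.95 and 3.84), HDC (4.94 and 4.65), KIT (4.10 and 4.41) and TPSAB1 (5.90 and 5.89) were under 6 log2 in both L1236 arrays. Averaged over the 5 markers the level was 6.42 to 6.47 in L1236 and 4.42 to 4.66 in the others, a gap made by FCER1A. Among Fc receptors, FCGR2A, a low-affinity IgG receptor, was also above each (8.53 and 8.60 against 4.28 to 7.35).

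Enzymes and receptors of eicosanoid metabolism followed. Of the list of lipid metabolism and eicosanoids 8 of 52 members were higher and 5 (4 and 3) lower. ALOX15, the 15-lipoxygenase of eosinophils and macrophages, was at 9.66 and 10.13 against 3.66 to 4.20 (median 3.98) (+5.93 ± 0.14, adjusted p = 3.11e-09). CYSLTR1, a cysteinyl leukotriene receptor, was at 9.98 and 9.83 against 3.95 to 8.11 (median 4.27) (+4.99 ± 0.46, adjusted p = 4.26e-05), and TBXAS1, thromboxane synthase, at 9.30 and 9.28 against 5.08 to 6.47 (median 5.61) (+3.62 ± 0.33, adjusted p = 3.47e-05). In all 3 genes both L1236 arrays were above the 8 others. ALOX5AP, which presents arachidonic acid to 5-lipoxygenase, was lower, at 6.63 and 5.80 against 6.61 to 13.83 (median 9.60) (-3.85 ± 0.38, adjusted p = 6.43e-05), and PPARG, a nuclear receptor of lipid metabolism, fell by 2.35 (but 0.12 against L428 and KM-H2 alone).

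The markers shared by Hodgkin lines were moved in both directions. Of the Hodgkin and Reed-Sternberg cell markers 9 (8 and 5) of 28 members were higher and 7 (4 and 8) lower, and TRAF1 alone was below each. TNFRSF8 was at 10.39 and 10.58 against 9.24 to 12.77 (median 11.02) and was not called (-0.65 ± 0.22, adjusted p = 0.0595). CCL17, the chemokine TARC, was at 12.79 and 13.66, with HDLM2 above it (14.55 and 14.47), L428 beside it (12.70 and 12.83) and KM-H2, L540 and L540Cy far lower (+2.53 ± 0.21, adjusted p = 1.94e-05). CD80, a costimulatory ligand, and IL13RA1 rose by 1.79 and 1.84, and CD83, TNFRSF9 and EBI3 fell by 2.32, 1.79 and 1.37 log2.

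In the NF-kB list 4 (6 and 2) of 30 members were higher and 5 (2 and 5) lower. TRAF1, an adaptor of TNF receptors that NF-kB induces, was at 5.11 and 5.43 in L1236 against 9.22 to 11.09 (median 10.78) in the other Hodgkin arrays (-5.13 ± 0.27, adjusted p = 7.99e-07) and 5.39 to 7.09 in the non-Hodgkin arrays. TNIP3, an inhibitor of NF-kB activation, was above each other line, at 10.12 and 9.74 against 5.37 to 8.001 (median 5.79) (+3.67 ± 0.16, adjusted p = 2.26e-07). Among the other called members LTA (+1.68), CYLD (+1.15) and TRAF6 (+0.84) were higher, and TRAF5 (-2.62), NFKBIZ (-1.34) and TNFAIP3 (-1.28) lower. CYLD and TRAF6 were not called over the mean of their probe sets (0.22 and 0.46), and CYLD differed by -0.22 against HDLM2 and L540 with L540Cy alone. The JAK-STAT list had 7 of 27 members higher, led by SOCS6 (+3.14), JAK2 (+1.49), BCL2L1 (+1.48) and CISH (+1.37), and 5 (3 and 3) lower, led by STAT3 (-1.37), PIM1 (-1.34), JAK3 (-0.87) and STAT5B (-0.86). SOCS6, a suppressor of cytokine signalling, was above each and PIM1, a STAT-induced kinase, below each. JAK2 was at 9.48 and 9.49 against 6.57 to 10.20 (median 7.59), and CISH differed by -0.06 against HDLM2 and L540 with L540Cy alone. In the AP-1 and BATF list ATF5 (+2.21) and BATF2 (+0.74) were above each, and JUNB (-1.35) was lower.

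Cell death genes included BCL2L11 (BIM), a proapoptotic BH3 protein, at 10.63 and 10.11 against 4.39 to 9.11 (median 6.35) (+3.96 ± 0.26, adjusted p = 3.44e-06), with 6 of its 7 probe sets higher. Of the BCL2 family and caspases 6 (5 and 3) of 28 members were higher and 3 lower. CASP1 rose by 1.75 and BID by 1.08. BCL2 was at 8.90 and 8.83 against 6.82 to 9.63 and was not called.

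Genes of other lineages were counted in the same way. Of 33 myeloid and dendritic cell genes 9.09% were higher and 9.09% lower, with S100A8 above each. Of 19 erythroid and megakaryocyte genes 10.5% were higher, HBD and PPBP, both above each, and none lower. Over all genes the shares were 13% and 10.1%. The myeloid markers CD14, LYZ and ITGAM and the erythroid marker ALAS2 were under 6 log2 in both L1236 arrays, and CSF1R and HBB were not. In the T cell list no member was called higher by limma and 8 (5 and 5) of 26 were lower (1 and 8 at an unadjusted p under 0.05), led by THEMIS (-5.18), CD247 (-2.18), CD4 (-1.96) and CD2 (-1.68). THEMIS, a T cell receptor signalling protein, was at 3.74 and 4.04 in L1236, as low as in L540 and L540Cy (3.62 and 3.65), while L428, KM-H2 and HDLM2 held 9.48 to 12.48. The high values of CD2 were those of HDLM2, and the high values of CD247 those of HDLM2, L540 and L540Cy. Against L428 and KM-H2 alone neither gene was called. EOMES, a T-box factor of cytotoxic cells, was above each other line, at 11.82 and 11.11 against 5.95 to 9.44 (median 8.76) (+3.13 ± 0.33, adjusted p = 1.03e-04), while the cytotoxic genes NKG7 (-2.40), GZMB (-2.17) and PRF1 (-1.79) were lower. The high values were those of L540 and L540Cy for NKG7 and GZMB and those of HDLM2 for PRF1. All 4 NK cell markers and 4 of 6 T cell markers (CD3D, CD3E, CD3G and CD2) were under 6 log2 in both L1236 arrays. The other T cell markers of that set, CD5 and CD7, were not. Among stromal and endothelial genes FAP, a fibroblast protease (+2.91 ± 0.13, adjusted p = 2.70e-07), and PECAM1 (CD31, +1.36 ± 0.20, adjusted p = 8.31e-04) were above each, and ACTA2 (-1.60) and PDGFRA (-1.42) below each. Of 5 stromal, endothelial and epithelial markers, COL3A1, CDH5 and EPCAM were under 6 log2 in both L1236 arrays, and COL1A1 and PECAM1 were not. In the melanocyte and neural crest list BANCR and, at a low level, TYRP1 (3.87 and 4.61 against 3.32 to 3.42) were above each, and MITF, the factor of the melanocyte lineage, had no direction that held across the lines, as given above.

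Annexins, galectins and S100 proteins, which bind calcium or sugars, were called in both directions. Of these genes 4 of 38 members were higher and 8 lower, with 3 above each and 3 below each and a median difference of -0.15. S100A10, the partner of annexin A2, was at 8.39 and 7.75 against 11.42 to 12.60 (median 12.10) (-3.999 ± 0.19, adjusted p = 4.41e-07), and LGALS3, galectin-3, at 4.68 and 4.32 against 5.04 to 12.95 (median 10.25) (-4.55 ± 0.13, adjusted p = 1.07e-08). S100A6 was at 4.86 and 4.80 in L1236, nearly as low in KM-H2 (5.09 and 5.26), and between 11.78 and 12.55 in the other lines (-5.55 ± 0.12, adjusted p = 1.45e-09). LGALS3 was likewise low in KM-H2 (5.04 and 5.11) and in L540Cy (5.08). ANXA6 (11.72 and 12.20 against 6.68 to 10.18), LGALS9 (10.39 and 10.65 against 6.52 to 8.31) and S100A8 were above each. The 2 L1236 arrays differed by more than 1 log2 in S100A8 (4.49 and 6.14).

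Adhesion genes were called in both directions. The shares higher and lower were 8% and 20% for the integrins and 18.3% and 8.33% for the cadherin list. They were 8.33% and 19.4% for the collagen list and 9.84% and 23% for the matrix protease list. Over all genes they were 13% and 10.1%. ITGB1, the beta chain shared by most matrix-binding integrins, was below each other line, at 7.33 and 7.63 against 10.38 to 12.17 (median 11.59) (-3.96 ± 0.26, adjusted p = 4.14e-06), in 3 of 7 probe sets. Of the integrins 2 of 25 were higher, ITGA4 (+1.87) and ITGAE (+1.40), and 5 (2 and 2) lower, among them ITGB2 (-1.37) and ITGAV (-1.34). Of the cadherins and other adhesion genes 11 (8 and 7) of 60 members were higher and 5 (2 and 3) lower. PCDH9, a protocadherin, was at 10.17 and 9.82 against 4.87 to 7.37 (median 5.46) (+4.21 ± 0.27, adjusted p = 2.84e-06), and CHL1, a neural adhesion molecule, at 6.84 and 6.39 against 3.50 to 3.78 (median 3.66) (+2.98 ± 0.14, adjusted p = 3.84e-07), while ICAM2 was below each (-1.26). Among the collagen and matrix genes 6 of 72 members were higher and 14 (7 and 7) lower, with P4HA2, a collagen hydroxylase (+3.60), COL4A2 (-3.35) and COL15A1 (-3.01) the largest. Of the matrix proteases and inhibitors 6 (5 and 3) of 61 members were higher and 14 (9 and 8) lower. MMP7, matrilysin, was at 9.37 and 8.88 against 4.61 to 4.97 (median 4.88) (+4.28 ± 0.16, adjusted p = 5.72e-08), with no overlap, and CTSC (+1.76) and ADAMTS3 (+0.96) were above each, while ADAM8 (-2.48) and ADAM23 (-1.34) were below each. SERPINA1, alpha-1 antitrypsin, was the largest fall of that list (-2.55 ± 0.28, adjusted p = 1.15e-04).

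The glutathione and oxidative stress list held the most genes above each, 8 of 58 measured, with 19 members higher and 15 lower. Clusters of related enzymes moved together. GSTM1, a glutathione transferase of the mu class, was at 11.80 and 11.23 against 7.47 to 8.80 (median 7.72) (+3.56 ± 0.21, adjusted p = 1.59e-06), and GSTM2 (+3.53) and GSTM4 (+1.67) were above each as well. AKR1C3, an aldo-keto reductase of steroid and prostaglandin metabolism, was at 9.95 and 9.31 against 3.89 to 6.35 (median 4.84) (+4.72 ± 0.34, adjusted p = 6.38e-06), with AKR1C1 (+2.09) and AKR1C2 (+2.41) also above each. Members of each of these clusters are near-identical, so their probe sets may share signal and the counts may hold fewer than 6 independent changes. GPX7, a peroxidase of the endoplasmic reticulum, was at 7.94 and 7.80 against 4.02 to 4.84 (median 4.23) (+3.60 ± 0.18, adjusted p = 6.30e-07), and PGD of the pentose phosphate pathway was above each by 0.66. On the lower side stood, besides GSTO1, PRDX2 (-3.96), MT1X (-1.63) and MT1E (-1.44), the last 2 of which are metallothioneins. Of the metallothioneins, zinc-binding proteins that also share much of their sequence, MT2A (-1.41), MT1F (-1.26), MT1H (-1.22) and MT1G (-0.84) were lower too, and these 4 are named after their values were seen. PRDX2, a peroxiredoxin, was at 4.48 and 4.06 in L1236 and as low in L428 and KM-H2 (3.83 to 4.27), but at 11.92 to 12.995 in HDLM2, L540 and L540Cy. Its fall is thus against the T cell derived lines.

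Metabolic genes were called in both directions. The shares higher and lower were 19.1% and 25.5% for the amino acid list and 17% and 14.9% for the glycolysis list, against 13% and 10.1% of all genes. SLC38A1, an amino acid transporter, was below each, at 9.32 and 9.20 against 11.98 to 12.42 (median 12.25) (-2.95 ± 0.12, adjusted p = 1.38e-07), and below all 5 non-Hodgkin arrays (11.85 to 12.44). ARG2, mitochondrial arginase, was above each (10.59 and 10.09 against 5.08 to 9.34). GLUL, glutamine synthetase, was at 4.02 and 3.71 in L1236, as low in L428 (4.04 and 4.04) and L540Cy (4.05), and at 10.01 or more in KM-H2, HDLM2 and L540. Of the amino acid genes 9 (5 and 3) of 47 members were higher and 12 (6 and 7) lower. Of the glycolysis and hypoxia genes 8 (5 and 6) of 47 members were higher and 7 lower. EPAS1 (HIF-2 alpha), a hypoxia-inducible factor, was at 9.87 and 8.69 against 3.89 to 6.07 (median 4.68) (+4.45 ± 0.27, adjusted p = 2.19e-06), in 1 of 3 probe sets, and PFKFB3, an activator of glycolysis, at 5.42 and 6.55 against 7.18 to 9.37 (median 8.30) (-2.32 ± 0.24, adjusted p = 8.49e-05). SLC2A5, a fructose transporter, was at 4.61 and 4.60, low also in L540 and L540Cy (5.05 and 6.08) and at 9.07 to 11.53 in the other lines.

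Of the HOX and homeobox genes 17 (13 and 11) of 54 members were higher and 5 (2 and 3) lower (8 lower over the 12 numbered arrays, with the replicate block or without it), and 6 were above each: HOXD4, HOXD10, HOXD11, HOXD13, HOXB6 and ZHX2. HOX genes encode homeodomain factors that pattern the body axis and are used in early haematopoiesis. The members of the HOXD cluster were at low to middle levels: HOXD13 at 8.42 and 7.87 against 4.73 to 5.48 (median 5.35) (+2.88 ± 0.23, adjusted p = 1.64e-05), HOXD11 at 6.82 and 7.32 against 4.53 to 4.81 (median 4.77) (+2.34 ± 0.14, adjusted p = 2.21e-06), and HOXD4 at 7.12 and 6.81 against 4.57 to 5.21 (median 4.81) (+2.13 ± 0.15, adjusted p = 4.69e-06). In these 3 genes no other Hodgkin array exceeded 5.48. HOXC9 (-2.31), HOXB13 (-1.35), HOXC10 (-1.29) and HOXB4 (-0.57) were lower. Among other regulators ZBTB16 (PLZF), a zinc finger factor of innate-like lymphocytes, was at 8.29 and 7.47 against 4.15 to 4.82 (median 4.44) (+3.43 ± 0.24, adjusted p = 6.48e-06). FLI1 (+2.46) and NR4A3 (+2.29) were above each, and ETS2, with 4.84 and 6.71 in its 2 L1236 arrays, was below each (-3.36 ± 0.39, adjusted p = 1.89e-04). Of the chromatin modifiers 9 (3 and 6) of 55 members were higher and 7 lower, with HDAC3 above each (+1.64 ± 0.12, adjusted p = 1.06e-05) and HDAC5 below each (-1.27 ± 0.14, adjusted p = 1.32e-04).

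Receptor and ligand families of developmental signalling held single members that stood out. In the WNT list, in which 3 of 48 members were higher and 5 (3 and 2) lower, WNT5B, a noncanonical ligand, was at 10.78 and 10.81 against 4.75 to 9.28 (median 6.25) (+4.12 ± 0.26, adjusted p = 3.02e-06), while TCF7L2, a transcription factor of the pathway, fell by 2.62. Without the array Reh replicate 1 the higher members of this list numbered 7. NOTCH genes had 10 (6 and 4) of 39 members higher, led by HES4 (+1.84), JAG2 (+1.51), HEY1 (+1.33) and LFNG (+1.04), and 4 lower, led by HES1 (-1.87), RBPJ (-1.52), NOTCH1 (-1.27) and NOTCH4 (-1.19). In the TGF-beta list TGIF1, a corepressor, was below each, at 3.78 and 3.66 against 6.10 to 8.26 (median 6.80) (-3.36 ± 0.25, adjusted p = 7.74e-06), in 1 of 3 probe sets. The BMP receptor BMPR1B (+3.61 ± 0.18, adjusted p = 5.14e-07) and the activin subunits INHBE (+3.42) and INHBA (+2.53) were, with LRRC32 (+2.53), the largest rises there. L428 held BMPR1B as high as L1236, at 9.46 and 10.09 against 9.03 and 9.24. MERTK, a receptor kinase that clears dying cells, was at 8.23 and 8.35 against 4.71 to 6.70 (median 5.93) (+2.48 ± 0.14, adjusted p = 1.17e-06). EFNB2, an ephrin ligand, was at 9.90 and 9.99, with KM-H2 next (8.62 and 8.70) and the other lines at 4.50 or less (+4.64 ± 0.11, adjusted p = 3.03e-09). EPHB1, an ephrin receptor, was at 12.41 and 12.28 in L1236 and nearly the same in L428 (12.31 and 12.09), so its rise (+4.66 ± 0.13, adjusted p = 9.85e-09) was shared with another line.

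Intracellular signalling genes were called in both directions, and their counts stand against 13% higher and 10.1% lower over all genes. Of the PI3K list 3 (1 and 1) of 33 members were higher and 5 (2 and 4) lower (9 lower over the 12 numbered arrays, with the replicate block or without it, and 5 higher without Namalwa replicate 2), and of the MAPK feedback list 3 of 42 members were higher and 9 (3 and 4) lower (6 higher without Reh replicate 1). GNAQ, a G protein alpha subunit, was at 11.67 and 11.64 against 4.50 to 10.11 (median 6.06) (+5.003 ± 0.28, adjusted p = 1.09e-06), higher in all 5 probe sets, with L540 and L540Cy next at 9.88 and 10.11. Of the RGS and G protein list 10 (7 and 5) of 49 members were higher and 6 (4 and 3) lower (6 higher over the 12 numbered arrays, with the replicate block or without it). RGS13, a regulator of G protein signalling known from germinal centre B cells and mast cells, was at 11.03 and 11.33 against 3.33 to 9.12 (median 5.83) (+5.20 ± 1.48, adjusted p = 0.0293), and RGS2 (+3.76) and RGS1 (+3.60) were higher as well. SGK1, a kinase of the PI3K pathway, was at 11.49 and 11.34 against 4.49 to 8.99 (median 7.57) (+4.26 ± 0.24, adjusted p = 1.24e-06). KSR1, a scaffold of the MAPK cascade, was below each, at 6.52 and 6.48 against 9.50 to 12.36 (median 9.96) (-3.995 ± 0.27, adjusted p = 4.24e-06), although this holds for 1 of its 4 probe sets. Of the haematopoietic adaptors 15 of 46 members were higher and 5 (2 and 2) lower, and the lower members numbered 9 without Reh replicate 1 and 8 over the 12 numbered arrays, with the replicate block or without it. LCP2 (SLP-76), an adaptor of T cell and mast cell receptors, was at 10.48 and 10.52 against 4.97 to 9.73 (median 6.14) (+3.84 ± 0.22, adjusted p = 1.30e-06). PTPRC (CD45) was at 10.43 and 10.23 in L1236 against 3.30 to 10.26 (median 7.07) (+3.24 ± 0.32, adjusted p = 6.38e-05), with L540 at the same level. PTPRK, a receptor phosphatase, was the largest fall of the list, at 3.56 and 3.82 against 3.48 to 11.87 (median 8.15) (-4.18 ± 0.26, adjusted p = 2.35e-06). Among the ion channels 12 of 67 members were higher and 12 (4 and 4) lower, with P2RX7, an ATP-gated channel (+3.44 ± 0.35, adjusted p = 7.65e-05), and CACNA1E, a calcium channel (+3.27 ± 0.16, adjusted p = 5.01e-07), above each, and KCNQ5, a potassium channel, the largest fall (-3.60 ± 0.61, adjusted p = 0.00191).

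Cell division genes were higher by small amounts, and none was called with the spread between the 4 other lines as the error. Of the genes of DNA replication and mitosis 20 (11 and 16) of 46 members were higher and 2 (1 and 0) lower, a share of higher members over 3 times that of all genes (43.5% against 13%), with a median difference of 0.41 against -0.04 over all genes. UBE2C, which drives exit from mitosis, was above each, at 12.22 and 12.002 against 10.76 to 11.48 (median 11.13) (+0.95 ± 0.13, adjusted p = 4.17e-04). BUB1 (+1.10), a spindle checkpoint kinase, and RRM2 (+0.89), a subunit of ribonucleotide reductase, rose with overlap of the groups, ORC6 (+0.89) rose as well, and TK1 (-0.60) and MCM3 (-0.46) were lower. Against HDLM2 and L540 with L540Cy, 25 members were higher, and against L428 and KM-H2, 14. Of the cell cycle regulators 14 (6 and 7) of 40 members were higher and 4 lower. CDKN2A (+2.65 ± 0.71, adjusted p = 0.022), CCND1 (+1.80 ± 0.15, adjusted p = 1.54e-05) and CDC25C (+1.71 ± 0.21, adjusted p = 2.61e-04) led the rises, and MDM2 (-1.51 ± 0.18, adjusted p = 2.55e-04) and GADD45A (-1.33), both targets of p53, were below each. MYCL was above each (9.63 and 10.14 against 5.08 to 8.19), as were ODC1 (+1.09) and CAD (+0.94) of polyamine and pyrimidine synthesis. In the secretory and unfolded protein list 11 (7 and 3) of 36 members were higher and 1 (0 and 0) lower. PDIA6, a disulfide isomerase, was above each (+0.97 ± 0.11, adjusted p = 1.39e-04), and HSPA5 (BiP) was at 13.35 and 14.08 against 12.06 to 13.21 (median 12.84) (+0.97 ± 0.19, adjusted p = 0.00432). In the DNA repair list CHEK1 (+1.28) and POLB (+1.13) were above each.

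Interferon-stimulated genes did not move as a group, in that 9 (6 and 3) of 40 members were higher and 7 (5 and 4) lower. GBP5 (8.09 and 7.90 against 4.25 to 6.600) and RSAD2 (+1.76) were above each, and IFI16, a DNA sensor (8.96 and 8.99 against 10.37 to 12.29), and IFIT5 (-2.20) below each. Of the cancer-testis antigens 6 of 39 members were higher and 9 lower. SPANXB1 was at 9.04 and 9.68 against 4.27 to 5.48 (median 4.43) (+4.75 ± 0.20, adjusted p = 1.66e-07) and DDX43 at 9.13 and 9.35 against 3.97 to 7.64 (median 4.91) (+3.87 ± 0.16, adjusted p = 1.19e-07), both above each. MAGEB2 was at 11.18 and 11.08, but L428 (10.63 and 10.75) and KM-H2 (12.41 and 11.94) held similar levels, and its rise (+3.46) is against HDLM2, L540 and L540Cy. TEX15 fell by 4.04, with low values also in L540 and L540Cy. Among long noncoding RNAs HCP5, which lies in the MHC region, was below each, at 4.18 and 4.10 against 6.99 to 8.53 (median 7.89) (-3.77 ± 0.19, adjusted p = 5.77e-07).

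Several genes that set L1236 apart are neighbours on a chromosome. The order of the RefSeq gene table (GRCh38.p14) was used. In it 115 of 569 placed genes above each lay next to another such gene among the measured genes (20.2%), in 55 runs. Of 224 genes below each, 25 did so (11.2%), in 11 runs. Genes above each made up 2.89% of all genes and genes below each 1.13%. No share expected from gene order alone, or seen in another line, was counted, so the 20.2% and 11.2% have no reference. The runs of 3 genes above each were AKR1C1, AKR1C2 and AKR1C3 on chromosome 10, GSTM4, GSTM2 and GSTM1 on chromosome 1, HADHA, HADHB and SELENOI on chromosome 2, TACC2, BTBD16 and PLEKHA1 on chromosome 10, and TULP2, NUCB1 and DHDH on chromosome 19. The AKR1C and GSTM genes are near-identical within each cluster, as given above, and may share probe signal. POU2AF1 and POU2AF3 are adjacent on chromosome 11, and HOXD11 and HOXD10 on chromosome 2. Below each, the longest runs were HLA-DRA, HLA-DRB6, HLA-DRB1 and HLA-DQA1, then HLA-DOA, HLA-DPA1 and HLA-DPB1, both on chromosome 6, where HLA-C and HLA-B formed another pair. No direction holds for HLA-DQA1 across its probe sets, as given above. Probe sets of related HLA genes may share signal, so these runs may hold fewer independent falls. S100A10 and S100A11 are neighbours on chromosome 1. The genes of this paragraph were picked for their positions after their values were seen.

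The comparison with 1 value per line left 99 genes, in which L1236 stood apart from the 4 other lines beyond the spread between those lines. It takes no account of the spread between the L1236 arrays. Genes at a like level in the 4 other lines, such as those near the bottom of the scale, pass it most easily. The 10 lower ones were GSTO1, MCUB, TSPYL1, EDF1, PHPT1, MSN, SLC38A1, RBMS1, TRIM32 and UBE2J1, the last 3 named after their values were seen. Of the genes described above, the higher ones included FCER1A (adjusted p = 0.00219), BANCR (0.00239), IL3 (0.00239), POU2AF1 (0.00337), POU2AF3 (0.00239), POU2F3 (0.0192), CCL2 (0.00239), KITLG (0.00624), CD27 (0.00414), CMA1 (0.00624), ALOX15 (0.00624), IL13RA2 (0.00358), MMP7 (0.00436), GPX7 (0.0234), HOXD11 (0.0165) and HOXD13 (0.0219), from limma with 1 value per line. PAX5 (0.212), BCL6 (0.296), TRAF1 (0.108), CD59 (0.422) and S100A11 (0.184) missed the threshold there.

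Some calls named above ended when 1 array was left out. Without L1236 replicate 2 the adjusted p from limma was 0.114 for CD27, 0.0559 for PSMB8, 0.0561 for LTA, 0.117 for FCER2, 0.113 for BATF2, 0.0652 for HES4, 0.0877 for HSPA5, 0.058 for HOXC10, 0.21 for IL2RA, 0.175 for TRAF6, 0.0755 for TYRP1, 0.073 for TK1 and 0.109 for MT1G. Without L1236 replicate 1 it was 0.292 for EBI3, 0.0616 for ENPP3, 0.0502 for HOXB13, 0.0543 for JAK3 and 0.214 for NFKBIZ. The calls of BATF3, BID, CD3D, CDKN2A, HOXB4, ITGAV, ITGB2, MCM3, RBPJ, RFX5, RFXANK, RGS13 and STAT5B ended without either L1236 array, and those of MITF and TNFAIP3 without L1236 replicate 1. The calls of MITF, RFXANK, RGS13 and TNFAIP3 also ended without single arrays of L428, KM-H2 or HDLM2, that of RBPJ without L428 replicate 1, and that of BATF3 without KM-H2 replicate 1 or L428 replicate 2. TNFRSF8 passed the threshold as lower without KM-H2 replicate 1 or Namalwa replicate 2. Every one of these differences kept its direction. These were calls against the mean of the 4 other lines. Calls above each or below each ended as well. Without L1236 replicate 1 this held for UBE2C, PSMB8, PSMB9, MDM2, GADD45A, BCL2L11, ARG2 and IFNGR1, and without L1236 replicate 2 for FOXO1 and GCSAM. For CD27, PIM1, ICAM2 and PDGFRA it held without either L1236 array. The MYC network and cytokine receptor lists also lost members above each. With the replicate number as a block over the 12 numbered arrays, which leaves out L540 and L540Cy, CD80 (0.0512), CDKN2A (0.119), GZMB (0.291), IL13RA1 (0.253), IL2RA (0.224), RGS13 (0.0935) and TNFAIP3 (0.0827) were no longer called, IL3RA was called lower (0.00673), and FSCN1 was called lower, with a difference of -0.58 (0.0344). Without the block the same 12 arrays lost CDKN2A, GZMB, IL13RA1, IL2RA, RGS13 and TNFAIP3 too, and the differences of FSCN1 and IL3RA were the same, called for IL3RA (0.00444) and not for FSCN1 (0.078).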

How the data were processed

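The authors deposited log2 RMA values for 54675 probe sets on 15 arrays, and RMA is named in the submitters' processing notes. The sources used here do not give its software, version or settings, or any scan batch. RMA fits all arrays together and compresses differences near the bottom of the scale, so folds of genes that are low in 1 group are understated. Arrays give no read depth, and their number, 2 of L1236, limits the precision. No 2 arrays held identical values.

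Probe sets were named through the GEO platform annotation: 41091 had 1 gene symbol, 1801 several and 11721 none, beside 62 control probe sets. Each of 19740 genes was taken from its probe set with the highest mean. Genes on the Y chromosome and XIST were left out, 35 in all. limma 3.58.1 in R 4.3.3 fitted 1 mean per line over all 15 arrays (6 residual degrees of freedom), with eBayes and Benjamini-Hochberg adjustment over all genes. Differences are L1236 minus the mean of the 4 other lines, in log2, ± SE. Values are log2 of 2 L1236 arrays and the lowest, highest and median of 8 others. Tables were made with Python 3.11.15, and the fit was checked on simulated data. Duplicates of the Hodgkin lines deviated together by replicate number: the differences between replicates 2 and 1 correlated at 0.25 to 0.36 across genes in all 6 pairs of these lines. With Reh the correlations were 0.14 to 0.22 and with Namalwa -0.07 to 0.06.

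The members and the 60 lists were chosen with earlier results of these data known, and no list is independent evidence. Genes were named by a rule: the 4 marker genes given for the line, the 15 largest differences in each direction among genes above or below each line, and up to 4 called members of each list in each direction. Members that complete a count of genes above or below each line, or that stand beside a named gene without being called, were named after their values were seen. Promoter sequences are from RefSeq (GRCh38.p14), and of the 18 measured MHC class II genes 14 had an entry. The files name no genome build, so gene coordinates from them are not given. Alternatives changed the probe set rule, filter, normalization, variance model, reference lines and arrays.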

Additional observations from a re-analysis of the deposited data

Results flagged for a closer look

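Signal outside the named genes was seen in probe sets without a gene symbol. Of these, 5 had both L1236 arrays at least 4 log2 above every other Hodgkin array, and none lay as far below. The widest gap was 5.47 log2, for a probe set at 9.42 and 10.08 in L1236 against 3.56 to 3.95 in the 8 other Hodgkin arrays and up to 9.35 in the non-Hodgkin arrays. The next was at 8.21 and 8.41 against 3.27 to 3.66. By the same rule KM-H2 had 11 such probe sets, L428 and HDLM2 2 each, and L540 with L540Cy 0. Over the genes with a symbol the same gap gave 31 above and 11 below for L1236. It gave 49 and 15 for KM-H2, 18 and 8 for L428, 11 and 5 for HDLM2, and 12 and 22 for L540 with L540Cy.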

How the results depend on the processing

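Over 31 alternatives, the counts of genes changed most with the error used. With a difference of at least 1 log2 as the null (treat), 452 genes were higher, 257 lower, 141 above each and 42 below each. With 1 value per line, 89 were higher and 10 lower. Against L428 and KM-H2 alone 1115 genes were above each and 642 below each of them, and against HDLM2 and L540 with L540Cy 1363 and 809, since fewer lines had to be passed. For the same reason 342 genes were below each without L428 and 363 without L540 and L540Cy. The 10 Hodgkin arrays alone gave 354 below each, and the cause was not tested. With a replicate block over the 12 numbered arrays 2634 genes were higher, 2263 lower, 830 above each and 419 below each, and without the block these arrays gave 363 below each. A replicate block over all 15 arrays, added after seeing the data, gave 2778, 2207, 641 and 259. Leaving out 1 array gave 1407 to 2836 higher, 1037 to 2261 lower, 382 to 667 above each and 125 to 274 below each.

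Of the named genes, these turned sign. Against L428 and KM-H2 the differences were 0.032 for CD2, 0.21 for CD247, -1.15 for FSCN1, 0.17 for IL26, 1.01 for IL2RA, 0.15 for IL6R, -0.30 for MAGEB2, 0.12 for PPARG and 0.24 for PRDX2. Against HDLM2 and L540 with L540Cy they were -0.061 for CISH, 0.067 for CR2, -0.22 for CYLD, -0.036 for FCER2 and 0.61 for MITF. CYLD was at -0.037 without KM-H2 and ITGAE at -0.016 without HDLM2. HLA-DQA1 was at 0.12 over the mean of its probe sets and at 2.83 in its most variable probe set, and FSCN1 at -0.58 over the 12 numbered arrays, which leave out L540 and L540Cy, with the replicate block or without it. The median over all genes was -0.05 after quantile normalization and -0.07 after centring, and neither turned a named gene. The low level of many genes limits what these arrays show, since differences between values near the bottom of the scale cannot be measured.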
